A study of Drosophila melanogaster with 17 samples.

Results

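The 937 peaks described here are the list given for chromatin immunoprecipitation of Cutoff (Cuff) in Drosophila melanogaster ovaries, taken whole and without a filter. They are the only peak list among the processed files, so 937 of 937 regions are members. The list rests on 2 Cuff ChIP libraries and 3 input control libraries, in which no protein was immunoprecipitated. The 5 libraries are labelled wild type and come from ovaries of females 2 to 4 days old, about 30 females per replicate per the labels' protocol. That protocol also states that the ChIP was made in a transgenic line expressing Cuff fused to EGFP, with GFP antibodies. The peaks therefore report the tagged protein, and no source used here names the promoter of the transgene. The rest of the series, RNA and RNA polymerase II profiles of cuff mutant and wild-type ovaries, is not used here.

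Cuff is a germline protein related to enzymes that remove and check the 5′ ends of RNA. With Rhino, a chromodomain protein of the HP1 family, and Deadlock, an adaptor, it forms a complex on dual-strand piRNA clusters. These are loci packed with transposon remnants whose transcripts from both strands are cut into small RNAs that silence transposons. The cluster at cytological position 42AB is the best known of them in the ovary. The flamenco locus, a single-strand cluster of the somatic follicle cells, is known to work without the complex.

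The authors give 1 list over both groups of libraries, with 1 score per peak. The score is the authors', the statistic behind it is not stated, and it is used below only within this list. No value per library was analysed here, so Cuff ChIP cannot be set against the input controls library by library, depth per library is unknown here, and there are no SDs and no tests. Exact 95% intervals, binomial for shares and Poisson for densities, cover counting error only. They take peaks as independent, which neighbouring peaks need not be. Positions are on build dm3, counted from 1.

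Of the 5 piRNA clusters looked up, 42AB on arm 2R held the most Cuff peaks. Cluster positions are published ones for this build, rounded to 10 kb, and not part of the files. It had 31 peaks, which was 3.31% of the list and 15.05% of the peaks on its arm. Together they covered 53.5 kb, or 21.4% of the cluster. The cluster held 124 peaks per Mb (95% interval 84.3 to 176), against 8.39 per Mb (7.20 to 9.73) on the remainder of 2R. The intervals lie far apart.

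**Figure D1:**
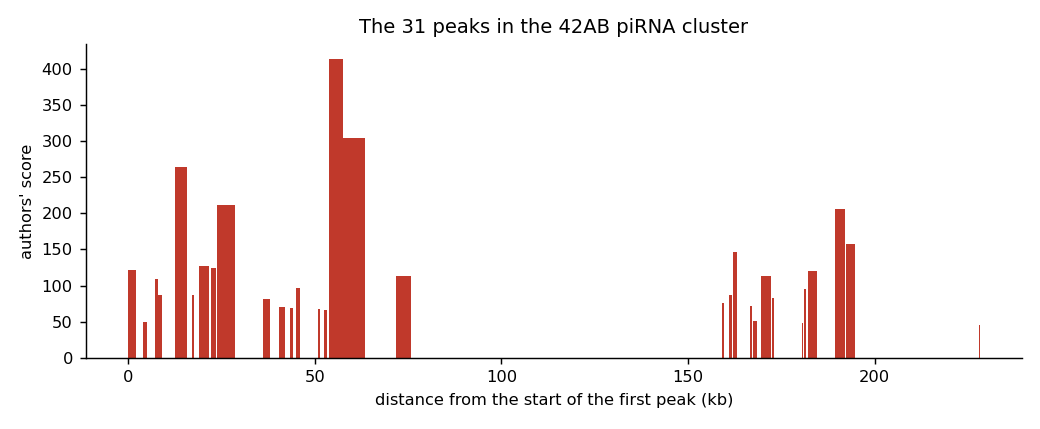
The 31 peaks in the 42AB cluster, drawn to scale by distance from the start of the first peak (kb, horizontal axis) with the authors' score as bar height and the peak width as bar width. A stretch of 83.2 kb without a peak parts 18 peaks from the other 13, and the highest score is 413.6.

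The peaks of 42AB formed 2 groups. The first held 18 peaks from 2R:2153920 to 2R:2229815, a span of 75.9 kb of which 49.5% was covered. The second held 13 peaks from 2R:2313056 to 2R:2382061, and 23.1% of its 69.0 kb was covered. Its last peak, with a score of 45.8, stood apart from the others. Without that peak the group spanned 35.6 kb and was 43.9% covered, close to the share in the first group. The 83.2 kb between the groups held no peak.

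Within the first group the score was uneven. The highest score of the whole list, 413.6, belonged to a peak of 3650 bp at 2R:2207826-2211475. Its neighbour, 110 bp away at 2R:2211586-2217240, was 5655 bp wide and had a score of 303.8, the third highest. A peak at 2R:2166588-2169699 followed with 263.6, and one at 2R:2177610-2182657 with 211.9 over 5048 bp. The lowest score of the group, 48.9, fell below the list's median of 53.9. In the second group scores ran from 45.8 to 206.5, and the highest belonged to 2R:2343284-2346003.

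Peaks in 42AB had higher scores than peaks elsewhere on the same arm, and those of its first group were also wider. The median score was 103.1 in the first group and 87.5 in the second, against 53.3 for the other 175 peaks of 2R. Median width was 1489 bp in the first group and 765 bp in the second, against 792 bp on the remainder of the arm. A score above 100 was given to 14 of the 31 (45.2%, 95% interval 27.3% to 64.0%), against 99 of 875 (11.3%, 9.29% to 13.6%) on the arms outside 42AB. Of the 31, 22 lay in the top 25% of the list by score. Both sets came from the same libraries and the same score, so the comparison is within 1 experiment.

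The other dual-strand clusters looked up held fewer peaks. The cluster at 38C on 2L had 5 peaks from 2L:20103349 to 2L:20207613 with scores of 44.2 to 65.5, covering 5.21% of it. Their median width was 1154 bp. None of these reached the top 25% of scores, and the median gap between them was 26.1 kb, against 1.32 kb in 42AB. Density over the 130 kb of 38C was 38.5 peaks per Mb (12.5 to 89.8), against 6.78 (5.76 to 7.93) on 2L as a whole. The interval of 38C overlaps that of 42AB, 84.3 to 176, at its edge. At 80EF on 3L, a dual-strand cluster close to the centromere and looked up only after its peaks had been seen, 5 peaks lay between 3L:23291179 and 3L:23306886. The widest peak of the list, 6123 bp at 3L:23295627-23301749, was one of them. Its score was 56.3, close to the median of the list. The 5 peaks at 80EF covered 25.9% of that cluster, more than the share in 42AB, with a median width of 2384 bp and a highest score of 77.7. Density there was 100 peaks per Mb with an interval of 32.5 to 233, which contains that of 42AB, so the density of these clusters cannot be ranked.

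The single-strand clusters 20A and flamenco, both near the centromere on X, held 0 peaks. The nearest listed peaks on either side were X:21244963-21246616, with a score of 47.9, and X:21882255-21882903, with 50.6. These left 635.6 kb of the arm without a peak around both loci. The longest stretch of X without a peak was 837.5 kb, so a stretch of this length also occurred away from these loci.

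The peaks as a whole, those in the piRNA clusters included, were spread over every arm. The 6 arms together held 906 peaks (96.7%), or 7.53 per Mb (95% interval 7.05 to 8.04). Arm 2R held 206, X 194, 3R 186, 3L 159 and 2L 156, and the small 4th chromosome held 5. Density was 8.66 per Mb on X (7.48 to 9.97), against 7.02 (6.504 to 7.57) on the 4 large autosomal arms without 42AB. These intervals overlap at their edges. With 42AB counted in, the 4 arms had 7.33 per Mb (6.80 to 7.89), which overlaps the interval of X further. No locus was left out of X. Without 42AB, 2R still had 8.39 peaks per Mb, above 6.78 on 2L, 6.67 on 3R and 6.49 on 3L, although its interval overlaps theirs. On the 4th chromosome the density was 3.70 per Mb, with a wide interval of 1.203 to 8.64.

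**Figure D2:**
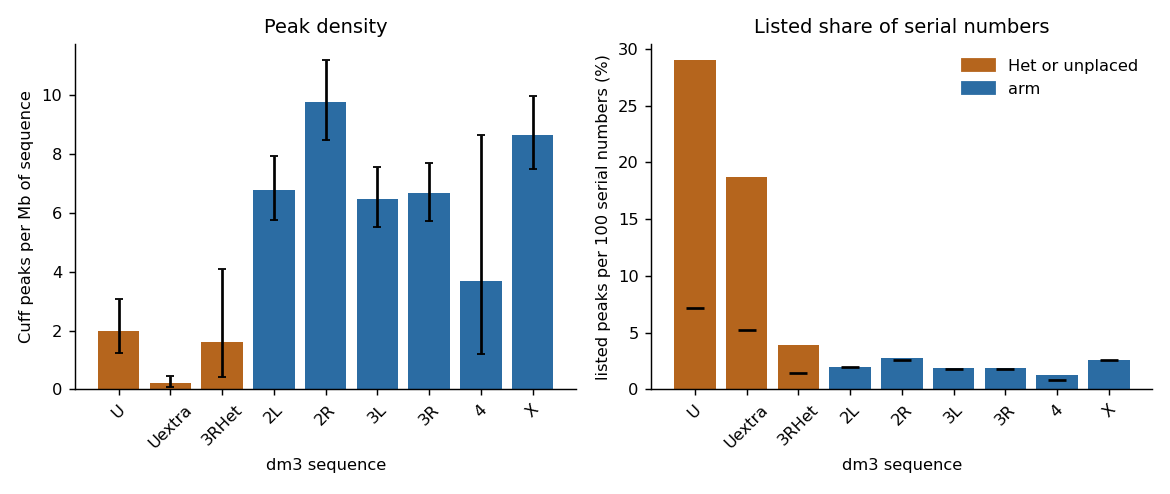
Left, Cuff peaks per Mb on each dm3 sequence that held at least 4 peaks; right, listed peaks as a percentage of the serial numbers spanned on it, the running numbers in the peak names, with bars for the values, error bars (left) for exact 95% intervals and black dashes (right) for the lower limits with the numbers up to the next listed sequences counted in. Density is lower on the unplaced and Het sequences (brown) than on 2L, 2R, 3L, 3R and X (blue). The listed share is between 7.17% and 28.99% on U and between 5.26% and 18.75% on Uextra.

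Peaks on X were the widest of those on the 5 large arms, with a median of 901 bp, against 829 bp on 3R, 816 bp on 2R, 795 bp on 2L and 713 bp on 3L. A width of 1 kb or more was seen in 43.8% of X peaks (36.7% to 51.1%), against 35.6% (32.1% to 39.3%) on the 4 large autosomal arms. Of the X peaks 30.4% (24.03% to 37.4%) lay in the top 25% of scores, against 22.9% (19.9% to 26.2%) on the same 4 arms. Without the peaks of 42AB those arms had 20.7% (17.7% to 23.96%) in the top 25%. The intervals overlap for width and for score, except that for score without 42AB they are apart by a small margin. That comparison is one-sided, as 42AB had 22 of 31 peaks in the top 25% and nothing was left out of X. Leaving it out lowers the autosomal share by construction.

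In windows of 1 Mb the median count was 7 peaks, and 1 window stood far above the others. It was 2R:2000001-3000000, which holds 42AB, with 41 peaks. The next were X:6000001-7000000 with 16 and 3R:19000001-20000000 with 15. Of the 123 windows 4 were empty, and each of the 4 was the last, incomplete window of its sequence. The 12 windows with most peaks held 20.8% of the arm peaks, and 18.2% when the peaks of 42AB were left out. These 12 of the 123 windows were chosen by their counts, so a share above that of an even spread is built in.

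**Figure D3:**
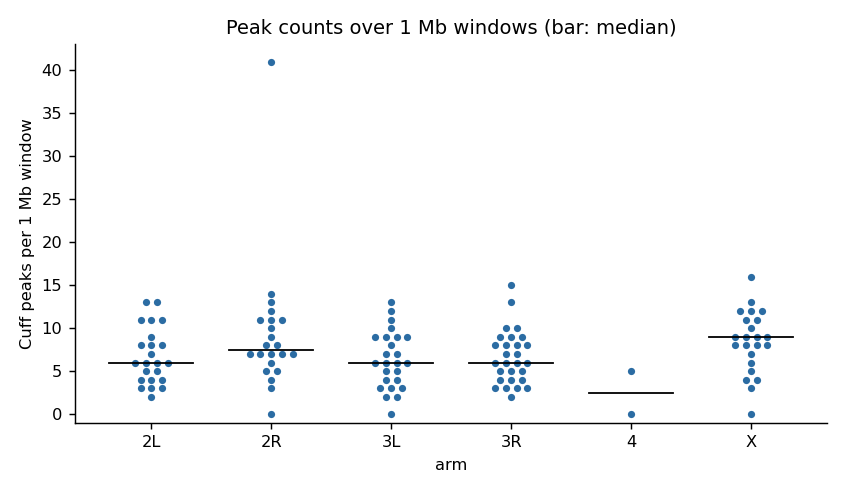
Cuff peaks per 1 Mb window (vertical axis) on each of the 6 arms, 1 point per window, with a black line at the median of the arm. The window of 2R with 41 peaks lies above the other windows, which hold 0 to 16.

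Along the arms, with 42AB set aside, density differed by less than the counting intervals. Each of the 5 large arms was divided into 5 equal parts counted from the centromere side. Without 42AB the part nearest the centromere had 6.93 peaks per Mb (5.90 to 8.08), and the parts further out had 7.19, 7.78, 7.91 and 6.85, with overlapping intervals. With 42AB the first value was 8.16. Single arms differed more. On X the highest density, 11.8 per Mb, was in the fourth part, and the lowest, 5.80 per Mb, was next to the centromere. On 2L the second part had 3.91 per Mb, against 7.17 to 8.04 in its other parts. Within 2 Mb of the centromere side lay 17 peaks on 3R, 14 on 2L, 9 on 2R, 8 on X and 7 on 3L.

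Heterochromatic and unplaced sequences held few peaks for their length. In dm3 the names ending in Het hold mapped heterochromatin, and U and Uextra hold scaffolds that had not been placed on a chromosome. Together they held 30 peaks (3.20%, 95% interval 2.17% to 4.54%), at 0.621 per Mb (0.419 to 0.886), against 7.53 per Mb on the arms. U had 20 of the 30, Uextra had 6 and 3RHet had 4. The serial numbers in the peak names, taken up below, were also sparse on unplaced sequence. From the first to the last peak they came to 9.07 per Mb on U and 1.19 on Uextra. On the large arms they came to 340 to 364 per Mb. On 3RHet they came to 239 per Mb, but only over the stretch from 3RHet:1669551 to 3RHet:2100824. At most 277 numbers can fall on the whole of 3RHet, which is about 2.5 Mb long. Whether Het, U and Uextra could be read as well as the arms was not tested. For 2LHet, 2RHet, 3LHet, XHet and YHet the list has 0 peaks, which allows up to 1.12 peaks per Mb on 2RHet and 1.42 on 3LHet. The shorter 2LHet, YHet and XHet allow up to 9.97, 10.5 and 18.4, above the density of the arms, so for these 3 a lower density was not detectable. No source used here says whether the authors' alignment held every one of these sequences. The remaining peak of the 937 lay on the mitochondrial genome, was 330 bp wide and had a score of 48.3.

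The peaks on U were narrow and had high scores. Their median width was 463 bp, against 818 bp on the arms, and their median score was 98.7, against 53.8. A score above 100 was given to 10 of the 20 (50%, 27.2% to 72.8%), against 11.3% of the arm peaks outside 42AB. On Uextra the 6 peaks had a median width of 382 bp and scores of 41.8 to 90.9. On 3RHet scores ran from 40.8 to 84.7, with the highest at 3RHet:2099386-2100824.

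Of the 20 peaks on U, 9 stood in 1 run of 16.03 kb at U:5288379-5304410. The highest score on any unplaced sequence, 224.9, belonged to this run, at U:5295478-5295835, although that peak was only 358 bp wide. Scores in the run ran down to 48.5, with a median of 105.5. A second group, U:5767958-5770516 and U:5771142-5771767, had scores of 126.7 and 206.1 at a distance of 625 bp. What these scaffolds contain is not annotated in the files used here.

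Neighbouring peaks were far apart as a rule, with a minority in close groups. Over 927 gaps between neighbours on the same sequence the median was 67.3 kb, and the quartiles were 17.1 and 178.5 kb. The mean, 162.6 kb, lay well above the median. On the arms alone the 900 gaps had a median of 66.8 kb and a mean of 128.7 kb. U and Uextra hold unplaced scaffolds, so gaps on them need not be distances along a chromosome. No peaks overlapped, and the smallest gap was 102 bp, on 3L. Gaps under 1 kb numbered 54 (5.83%), and 13 of these were in 42AB. Under 10 kb there were 169 (18.2%), and under 100 kb 550 (59.3%).

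**Figure D4:**
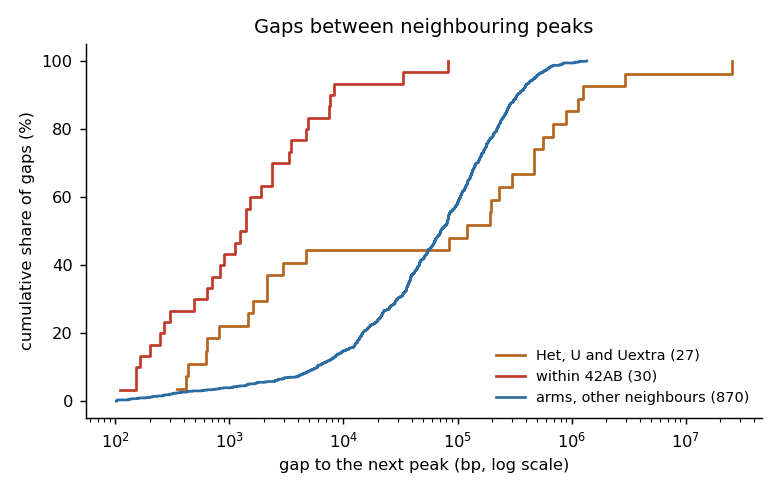
Cumulative share of gaps (vertical axis, %) against the gap to the next peak (bp, log scale) for neighbours on Het, U and Uextra, within 42AB, and elsewhere on the arms, with the number of gaps in brackets. The 42AB curve lies far to the left, and the curve for the unplaced and Het sequences has a flat stretch between close and distant neighbours.

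Spacing differed between the sequences. The median gap was 43.5 kb on 2R, 50.6 kb on X, 75.9 kb on 2L, 82.3 kb on 3L and 95.4 kb on 3R, and without the peaks of 42AB it was 62.1 kb on 2R. On U it was 2.15 kb, although U had fewer peaks per Mb than these arms. Gaps over 1 Mb occurred 9 times, 5 of them on arms and the others on U and Uextra. The longest on an arm, 1359 kb, ran from 2L:3478679 to 2L:4837749. The next were 1177 kb on 3R, 1147 kb on 3L, 1078 kb on 3R and 1057 kb on 3R.

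A run was counted where at least 3 peaks followed each other with gaps under 10 kb. There were 19 runs with 91 peaks, 9.71% of the list. The longest were both in 42AB, with 18 and 12 peaks, and the next was the run of 9 on U. Runs of 5 lay at X:5780747-5796407, with scores of 41.3 to 123.7, and at 80EF. The other 14 runs had 3 peaks each. By sequence, X had 7 runs, 2R 5, 3R 3, 2L 2, and 3L and U 1 each. A further 97 groups were pairs, and 652 peaks (69.6%) had no other peak within 10 kb.

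High scores were not confined to runs. Of the 123 peaks with a score above 100, 69 had no other peak within 10 kb. They made up 10.6% of such lone peaks (8.33% to 13.2%), against 18.9% (14.6% to 23.99%) of the peaks with a neighbour. Of the 123 peaks 14 lay in 42AB and 10 on U. Over arm peaks outside the looked-up clusters the median score was 53.6 with a neighbour within 10 kb and 53.0 without. Median widths there were 785 and 811 bp.

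Of the 10 highest scores 3 belonged to 42AB and 7 were scattered over 3R, 2L and X. The second highest, 338.6, was at 3R:772985-774187, a peak of 1203 bp. At 2L:21214443-21215464 a peak of 1022 bp had a score of 295.5, with its nearest neighbour 93.7 kb away. The 785 bp peak at X:15604035-15604819 scored 275.6 and was the narrowest of the 10. On the same arm X:917342-921063 scored 265.7 over 3722 bp, 95.3 kb from its nearest neighbour. The remaining members were 3R:4756650-4757883 with 251.5, 2L:9436891-9437992 with 239.6 and X:20913465-20914516 with 230.3. No gene is named at these positions, because no gene annotation of dm3 was used here. The highest score on 3L was 224.6, at 3L:14266974-14267857, and on the 4th chromosome 46.9, at 4:887448-888035.

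The 10 widest peaks were a different set in part, sharing 4 members with the 10 highest scores. Of these 10 widest, 5 lay in 42AB and 1 at 80EF. The others were 2R:760262-764617 (4356 bp, score 69.8), X:917342-921063, X:9477454-9480680 (3227 bp, score 80.2) and 3R:14068191-14071151 (2961 bp). That last peak had a score of 45.6, below the median of the list, so great width did not require a high score.

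Over the whole list wider peaks tended to have higher scores. Widths ran from 206 to 6123 bp with a median of 799 bp, and scores from 40.2 to 413.6 with quartiles of 45.4 and 75.6. Spearman's rho between score and width was 0.34 over 937 peaks, which share libraries and a caller and are not independent. With the list divided into 5 equal classes by score, the median width from the lowest class to the highest was 581, 617, 807, 933 and 1078 bp. With 5 classes by width the median score was 47.8, 49.8, 52.5, 63.7 and 65.4, so the 2 widest classes were nearly alike. Peaks of 1 kb or more numbered 342, held 59.4% of the bases covered and had a median score of 65.4, against 50.4 for the 595 narrower ones.

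**Figure D5:**
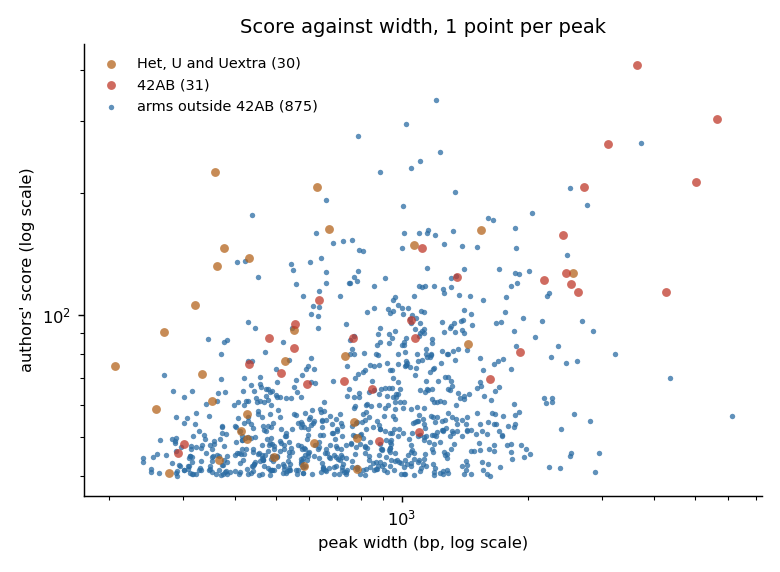
The authors' score against peak width (bp), both on log scales, 1 point per peak, for Het, U and Uextra, the 42AB cluster and the arms outside 42AB. The peaks of 42AB rise from narrow and low to wide and high (rho 0.77), whereas the unplaced and Het peaks are mostly narrow at any score.

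The relation was closest in 42AB, where rho was 0.77 over 31 peaks, and 0.75 and 0.86 within its first and second group. On the arms without 42AB it was 0.34 over 875 peaks. By arm rho was 0.48 on 2L, 0.43 on 2R, 0.36 on 3R, 0.31 on 3L and 0.25 on X. For the 30 peaks on Het, U and Uextra it was 0.13, where narrow peaks had both low and high scores.

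The peak names carry a serial number after the words that mention MACS2, a peak caller. Within each sequence that number rose with position, and the sequences followed each other in alphabetical order up to 43036. Read as a count of calls before selection, which the file does not state, the 937 listed peaks were 2.18% of at least 43036 calls. On the large arms the serial numbers spanned came to 340 to 364 per Mb, so the numbering was about as dense on each. Their listed share was 2.62% on X (2.27% to 3.01%) and 2.75% on 2R (2.39% to 3.14%), against 2.00% on 2L (1.70% to 2.33%), 1.90% on 3L (1.62% to 2.22%) and 1.86% on 3R (1.60% to 2.14%). Without 42AB the share on 2R was 2.35% (2.02% to 2.72%), which overlaps the intervals of 2L, 3L and 3R.

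Listed peaks were a larger part of the numbering in 42AB and on U than on the large arms. Shares counted from the first to the last listed peak have listed ends by construction and are upper limits for short stretches. Lower limits count up to the next listed peak on either side. In 42AB the share lay between 31 of 146 numbers (21.2%) and 31 of 62 (50%), and in 38C between 5 of 120 (4.17%) and 5 of 46 (10.9%). In 80EF it lay between 5 of 442 (1.13%) and 5 of 7 (71.4%), a range that contains the shares of the large arms. On 3RHet it lay between 1.44% and 3.88%, and on the 4th chromosome between 0.82% and 1.27%. On U it lay between 20 of 279 (7.17%) and 20 of 69 (28.99%), with 9.07 numbers per Mb from its first to its last peak. Uextra had only 6 peaks, and no interval was computed for its lower limit. There the share lay between 6 of 114 (5.26%) and 6 of 32 (18.75%), with 1.19 numbers per Mb. The stretches without a peak at the clusters also had few numbers. Between the groups of 42AB 4 numbers fell in 83.2 kb, or 48.1 per Mb. Around 20A and flamenco 97 fell in 635.6 kb, or 153 per Mb, against 340 per Mb on X as a whole. The 0 peaks there thus stand beside few calls of any kind, and whether this sequence could be read as well as the remainder of X was not tested. By contrast the longest stretch without a peak on an arm, on 2L, spanned 396 numbers, or 291 per Mb. Of 927 neighbouring pairs 67 had consecutive numbers, 19 of them in 42AB and 10 on U, and the median step was 28.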

How the data were processed

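The series holds 17 libraries of ovaries. The peak list used here rests on 2 Cuff ChIP and 3 input control libraries. Each peak's score is the authors' deposited value in an unstated unit, with 1 score per peak and none per library. cutadapt 1.2.1, Bowtie2 2.0.0, SAMtools 0.0.19, bedtools, MACS2 2.0.10.20130501 and build dm3 are named per the submitters' processing notes. The peak names mention MACS2, a step called idr and all 3 controls. No source used here says whether peaks were called on single or pooled samples, at which thresholds, or how reads matching several places were treated. Values in repeated sequence (42AB, U) may depend on that treatment.

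Computed here with Python 3.11.15, pandas 2.3.3 and scipy 1.17.1 were widths, gaps, runs, windows of 1 Mb (by peak midpoint), exact intervals and Spearman's rho, after a check on simulated positions. Depth per library is unknown here. Sequence lengths of dm3, rounded to about 0.1 Mb (finer for short ones), and published release 5 positions of piRNA clusters, rounded to 10 kb, were entered by hand from knowledge of the literature and do not come from the files. No dm3 sequence or gene annotation was used. Peaks named are the 10 highest scores, the 10 widest, the highest on each sequence, the longest runs and gaps, the fullest windows and those in clusters; 80EF and the serial numbers were added after values were seen. Members and lists were chosen with earlier results of these data known. The gene tables for RNA and Pol2 give no positions and were not used.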

Additional observations from a re-analysis of the deposited data

How the results depend on the processing

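Of 35 values recomputed under other settings, 18 stayed within the 95% interval of the value reported. For densities and shares this was the exact counting interval. For medians it came from the ranked values, and for the correlation from a normal approximation, both with peaks taken as independent. With peaks at or above the median score, density on the 6 arms was 3.73 per Mb, the median gap 141.0 kb, the median width 966 bp and Spearman's correlation of score and width 0.25. In the top 25% by score these were 1.84 per Mb, 277.8 kb, 1087 bp and 0.11, with 6.36% of peaks outside the arms (3.31% of all peaks, the mitochondrial peak included) and 11.9% in runs. A stricter score lowers density and widens gaps by construction. It also narrows the range of scores, and wider peaks tended to have higher scores. The shifts in correlation and width are therefore not independent of the cut. Outside the arms, the mitochondrial peak included, Spearman's correlation of score and width was 0.17 (0.13 without that peak). The share of peaks in runs was 6.34% with intervals under 1 kb apart joined, 6.19% with gaps under 5 kb, 17.7% with gaps under 20 kb and 6.73% without the 42AB peaks, an alternative chosen after seeing the data. The fullest 10% of windows held 24.6% of arm peaks at 500 kb and 30.0% at 250 kb. By construction a shorter gap limit can only lower the share in runs, and a longer one can only raise it. Smaller windows likewise tend to raise the share held by the fullest 10%. The cause of these shifts was not tested beyond that.

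No paired analysis was possible because the list has 1 score per peak and none per library. For the same reason leaving out a library in turn was not run, and unknown depth limits every count. Joining to genes was not run, as no gene positions on dm3 were used.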
